A study of Homo sapiens with 12 samples.

Results

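The question was which genes respond differently to the loss of cystine when VHL is put back into renal carcinoma cells that lack it. All 11963 genes measured on the arrays entered the comparison, each through the probe set with the highest mean, over all 12 arrays of the series. For each gene the change on deprivation in Vec cells was subtracted from the change in VHL cells. A positive difference therefore means a more positive change in VHL cells, on the log2 scale of the deposited expression values.

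All arrays carried RNA of RCC4, a human line from a clear cell renal carcinoma without functional VHL. The 4 groups were Vec cells (empty vector) in control medium, Vec cells in cystine-deprived medium, VHL cells (VHL put back) in control medium and VHL cells in cystine-deprived medium, with 3 arrays each, after 6 h. Per the labels both media were DMEM with 10% serum, and dialysed serum is named for the deprived medium alone, so cystine and serum cannot be told apart. Whether each line is a pool or a single clone is not given in the sources used here, so VHL and other differences between these lines cannot be told apart either. The labels call the arrays biological replicates without naming separate cultures, so the p-values measure the spread between these samples, which may be technical.

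VHL is the part of a ubiquitin ligase that binds hydroxylated alpha chains of HIF, the hypoxia-inducible transcription factors, and marks them for degradation, so cells without it keep HIF targets switched on in normal oxygen. Cystine is the oxidised form in which most cells import cysteine, which they need for protein and for glutathione. When an amino acid runs short, the kinase GCN2 favours translation of the transcription factor ATF4, which raises genes for amino acid synthesis, uptake and stress signalling.

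Array medians ran from 7.12 to 7.18, and arrays of a group correlated between 0.9978 and 0.9987 with each other. Tubule and epithelial markers were mixed. PAX8 read a mean of 10.92 and KRT18 11.95 (log2), both above 6.46, the level used here as the upper bound of dim values. Dim members of the same lists included LRP2 at 4.57, CUBN at 4.52, AQP1 at 5.33 and CDH1 at 4.62. Above 6.46 lay 0 of 9 endothelial markers and 3 of 11 blood cell markers. PTPRC, which marks blood cells, read 4.38. The 1 probe set for VHL is dim, at 5.85 ± 0.04 and then 5.99 ± 0.11 in Vec cells and 5.99 ± 0.04 and then 5.94 ± 0.01 in VHL cells (control then deprived medium, mean and SD, n = 3), and its place in the transcript is not known, so it cannot check the labels. Its difference of responses was -0.19 ± 0.08 (adjusted p = 0.440).

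Cystine loss raised a small set of genes more in VHL cells than in Vec cells on the log2 scale. The difference of responses was called for 16 of 11963 genes, or 0.134%, at an adjusted p under 0.05 in limma, 15 higher in VHL cells (0.125%) and 1 lower (0.00836%). Unadjusted p-values under 0.05 were found for 1176 genes, or 9.83%, 668 higher (5.58%) and 508 lower (4.25%). Among the 16 were the stress regulators ATF4, DDIT3 and ATF3, the mitochondrial enzymes PCK2 and MTHFD2, the secreted proteins INHBE, STC2 and CCN2, the growth signalling proteins DDIT4 and IRS2, and TXNIP and TFRC of redox and iron metabolism. All 16 were also called in VHL cells on their own (background 11.6% of genes), and 11 of 16 in Vec cells (background 4.18%). The arrays of the media did not overlap for 16 of 16 in VHL cells (background 30.6%) and for 13 of 16 in Vec cells (22.7%), the exceptions being TFRC, FUT1 and HS3ST3A1. These counts use the same arrays as the difference and lend it no support.

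By pattern, 14 genes rose in VHL cells and either rose less (log2) or were not called in Vec cells. HS3ST3A1 fell in VHL cells without a call in Vec cells, and HOXC6 fell in Vec cells and rose in VHL cells. HOXC6 changed more in Vec cells (-0.29) than in VHL cells (0.18), and counts as opposite because both lines were called. No other called gene had a rise or fall led by Vec cells. With median centring, and with quantile normalization, 1 called gene was classed as a fall led by Vec cells and 0 as opposite. The called differences ran from 0.33 to 1.02 in size, where 1.02 is the value of FUT1, a gene with a dim mean. Over all genes the quartile range was -0.07 to 0.09 and the median 0.01. Of the 44 genes with a difference of at least 0.5 in either direction, 12 were called.

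**Figure D1:**
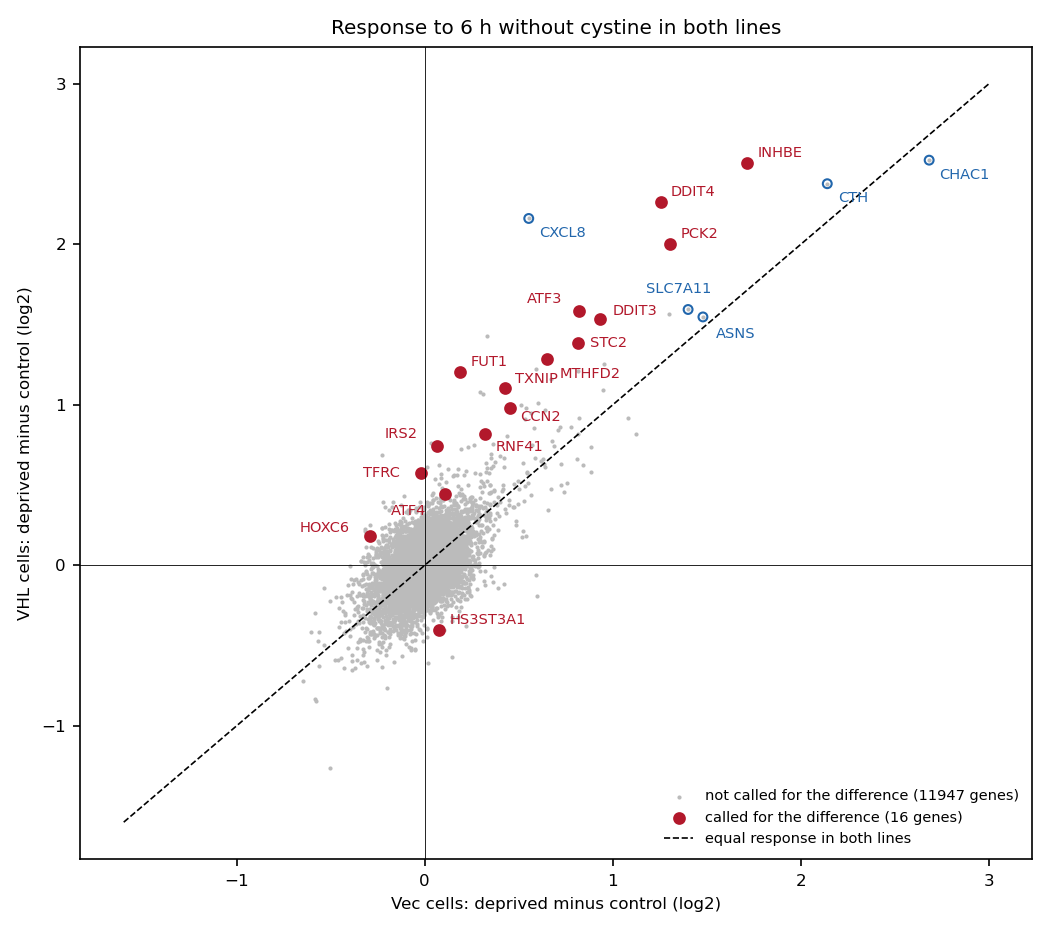
Change on cystine deprivation (log2) in Vec cells on the horizontal axis and in VHL cells on the vertical axis, 1 point per gene for 11963 genes, with the 16 genes called for the difference in red and 5 genes that were not called circled in blue. CHAC1, CTH, SLC7A11 and ASNS lie near the dashed line of equal response, while DDIT4 lies 1.01 and CXCL8 1.61 above it.

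Among the regulators, ATF4 mRNA itself responded differently. ATF4 read 12.95, 12.91 and 12.98 in Vec cells in control medium and 13.05, 13.06 and 13.06 after deprivation, and in VHL cells 12.23, 12.21 and 12.24 and then 12.66, 12.67 and 12.67. The media groups did not overlap in either line, and all VHL arrays lay below all Vec arrays. ATF4 rose by 0.44 ± 0.04 in VHL cells (adjusted p = 1.58e-05) and gave 0.11 ± 0.04 in Vec cells (0.170), a difference of 0.33 ± 0.06 (adjusted p = 0.0416). Left out in turn, each of the 12 arrays took the adjusted p past 0.05, to between 0.0682 and 0.126, while the difference stayed between 0.32 and 0.35.

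DDIT3, also known as CHOP, is a stress transcription factor downstream of ATF4. It read 8.28, 8.34 and 8.49 in Vec cells in control medium and 9.36, 9.29 and 9.25 after deprivation, and in VHL cells 7.95, 7.92 and 7.98 and then 9.56, 9.45 and 9.44. VHL cells started lower and ended higher. DDIT3 rose 1.91-fold in Vec cells and 2.90-fold in VHL cells, a difference of 0.60 ± 0.08 (95% interval 0.42 to 0.78, adjusted p = 0.0100).

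ATF3, a stress-induced repressor and activator of the same family, read 8.73, 8.69 and 8.67 in Vec control cells and 9.56, 9.51 and 9.49 after deprivation. In VHL cells it read 7.37, 7.34 and 7.20 and then 9.05, 8.81 and 8.80. The VHL arrays stayed under the Vec arrays in both media, by less after deprivation. The rise was 0.82 in Vec cells and 1.58 in VHL cells, a difference of 0.76 ± 0.10 (adjusted p = 0.00523). On the linear scale (2 to the power of the deposited value), the rise was nearly equal, 319.1 in Vec cells and 316.8 in VHL cells.

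PCK2 and MTHFD2 are mitochondrial enzymes. PCK2, which makes phosphoenolpyruvate from oxaloacetate in mitochondria, read 8.82, 8.72 and 8.83 in Vec cells in control medium and 10.05, 10.07 and 10.17 after deprivation, and in VHL cells 7.51, 7.47 and 7.54 and then 9.51, 9.64 and 9.38. It rose 2.48-fold in Vec and 4.01-fold in VHL cells, a difference of 0.70 ± 0.09 (adjusted p = 0.00695), and VHL cells remained below Vec cells. On the linear scale the order of the rises turned, with 654.0 in Vec cells and 548.6 in VHL cells.

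MTHFD2, which oxidises folate-bound carbon units in mitochondria, had Vec means of 11.95 ± 0.04 in control medium and 12.60 ± 0.02 after deprivation (SD, n = 3). In VHL cells it read 11.41, 11.23 and 11.32 and then 12.56, 12.65 and 12.60. The lines were apart in control medium, by -0.64 ± 0.05, and their arrays overlapped after deprivation, at a gap of -0.0014 ± 0.05 (adjusted p = 0.985). The difference of responses was 0.63 ± 0.07 (adjusted p = 0.00428).

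Among secreted proteins, INHBE, an inhibin beta subunit, was called from low values. INHBE read 4.76, 4.80 and 4.75 in Vec cells in control medium and 6.54, 6.40 and 6.52 after deprivation, and in VHL cells 4.72, 4.78 and 4.60 and then 7.32, 7.24 and 7.06. The lines overlapped in control medium, where the values are dim, and separated after deprivation. The measured change was 1.71 in Vec and 2.51 in VHL cells (log2), a difference of 0.79 ± 0.10 (adjusted p = 0.00498). The control values of INHBE were not shown to be above background, so no fold is given.

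STC2, a secreted glycoprotein induced in amino acid shortage, read 11.04, 11.02 and 11.07 in Vec control and 11.82, 11.91 and 11.84 in Vec deprived cells, against 10.26, 10.34 and 10.29 and then 11.71, 11.70 and 11.63 in VHL cells. A gap of -0.75 ± 0.05 between the lines narrowed to -0.18 ± 0.05, and the difference of responses was 0.57 ± 0.07 (adjusted p = 0.00428). The other probe set of STC2 gave 0.41 ± 0.07, with an adjusted p of 0.0606 over all probe sets.

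CCN2, a matricellular protein also called connective tissue growth factor, had means of 9.87 ± 0.07 and 10.33 ± 0.05 in Vec cells and 8.78 ± 0.09 and 9.76 ± 0.08 in VHL cells (SD, n = 3, control then deprived). No array of 1 medium overlapped the other in either line. The difference of responses was 0.52 ± 0.09 (adjusted p = 0.0345). This call held without Vec control replicate 1, VHL control replicate 2 or VHL deprived replicate 3, and was lost without any 1 of the other arrays, at adjusted p-values from 0.0592 to 0.116.

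DDIT4 gave the smallest adjusted p of all genes. DDIT4, an inhibitor of the growth kinase complex mTORC1 that HIF and ATF4 both induce, read 11.48, 11.44 and 11.44 in Vec control and 12.73, 12.71 and 12.67 in Vec deprived cells. In VHL cells it read 8.58, 8.48 and 8.48 in control medium and 10.81, 10.74 and 10.77 after deprivation. Every VHL array lay below every Vec array, and the groups of each line were far apart. DDIT4 rose 2.39-fold in Vec cells and 4.80-fold in VHL cells, a difference of 1.01 ± 0.06 (95% interval 0.87 to 1.15, adjusted p = 1.31e-05). On the linear scale Vec cells rose more, by 3877 against 1387, from control means of 2798 and 365.3.

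IRS2, an adaptor of the insulin and IGF1 receptors, was called in VHL cells and not in Vec cells. IRS2 read 12.10, 12.09 and 12.13 in Vec cells in control medium and 12.17, 12.18 and 12.17 after deprivation, and in VHL cells 9.13, 9.11 and 9.13 and then 9.90, 9.86 and 9.85. It rose by 0.74 ± 0.04 in VHL cells and gave 0.07 ± 0.04 in Vec cells (adjusted p = 0.443), a difference of 0.68 ± 0.06 (adjusted p = 1.56e-04). The other probe set of IRS2 gave 0.61 ± 0.09 (adjusted p = 0.0136 over all probe sets).

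TXNIP, which binds and inhibits thioredoxin and restrains glucose uptake, read 10.51, 10.48 and 10.47 in Vec cells in control medium and 10.88, 10.91 and 10.95 after deprivation, and in VHL cells 10.67, 10.91 and 10.70 and then 11.88, 11.88 and 11.85. VHL cells lay above Vec cells in both media, and further after deprivation. The rise was 1.34-fold in Vec and 2.16-fold in VHL cells, a difference of 0.68 ± 0.08 (adjusted p = 0.00498). The other probe sets of TXNIP gave 0.72 and 0.79, both called over all probe sets (adjusted p = 0.0345 and 5.49e-04).

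TFRC, the transferrin receptor that brings iron into cells, read 13.33, 13.49 and 13.48 in Vec control and 13.43, 13.42 and 13.41 in Vec deprived cells, which overlap. In VHL cells it read 12.25, 12.07 and 12.08 and then 12.69, 12.73 and 12.70. TFRC rose 1.49-fold in VHL cells and gave -0.02 ± 0.06 in Vec cells (adjusted p = 0.930), a difference of 0.59 ± 0.08 (adjusted p = 0.0100), and its other probe set gave 0.80 ± 0.08. The Vec values of TFRC and ATF4 lie near the top of the arrays, whose highest values ran from 14.69 to 14.79. The part of a ceiling in their small Vec responses was not tested.

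The other called genes come from unrelated families. FUT1, a fucosyltransferase that makes the H blood group antigen, read 5.26, 5.33 and 5.31 in Vec cells in control medium and 5.48, 5.28 and 5.71 after deprivation, and in VHL cells 5.41, 5.50 and 5.57 and then 6.91, 6.57 and 6.61. The VHL deprived arrays alone stood apart, all above 6.46, and the others were dim. The measured difference was 1.02 ± 0.15 (adjusted p = 0.0141), and as its other 3 groups were not shown to be above background, FUT1 is not ranked against other genes. FUT1 was not called once replicate 2 of the Vec control group (adjusted p = 0.0602) or replicate 1 of the Vec deprived group (0.0536) was left out.

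HOXC6, a homeobox transcription factor, was called in opposite directions. It read 8.21, 8.22 and 8.19 and then 7.95, 7.95 and 7.85 in Vec cells, and 8.59, 8.64 and 8.59 and then 8.81, 8.86 and 8.70 in VHL cells. HOXC6 changed by -0.29 ± 0.05 in Vec (adjusted p = 0.00751) and by 0.18 ± 0.05 in VHL cells (0.0371), a difference of 0.47 ± 0.07 (0.0238). The call held without VHL control replicate 2 or VHL deprived replicate 3 and was lost without any 1 of the other arrays (adjusted p from 0.0526 to 0.0844).

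RNF41, a ubiquitin ligase of receptor turnover, had means of 7.41 ± 0.06 and 7.73 ± 0.03 in Vec and 7.36 ± 0.10 and 8.17 ± 0.05 in VHL cells (SD, n = 3), a difference of 0.49 ± 0.08 (adjusted p = 0.0345). Its other probe set gave 0.27 ± 0.12 (0.502 over all probe sets). The RNF41 call held without Vec control replicate 3 or VHL control replicate 3 and was lost without any 1 of the other arrays (0.0588 to 0.108).

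HS3ST3A1, which adds a sulfate to heparan sulfate chains, was the called gene with a negative difference. It read 10.26, 10.37 and 10.36 and then 10.36, 10.40 and 10.46 in Vec cells, which overlap, and 10.00, 9.83 and 9.86 and then 9.47, 9.50 and 9.52 in VHL cells, which do not. HS3ST3A1 fell by 0.40 ± 0.05 in VHL cells and gave 0.08 ± 0.05 in Vec cells (adjusted p = 0.541), a difference of -0.48 ± 0.08 (0.0326). The call held without VHL control replicate 2 and was lost without any 1 of the other arrays (0.0566 to 0.108).

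**Figure D2:**
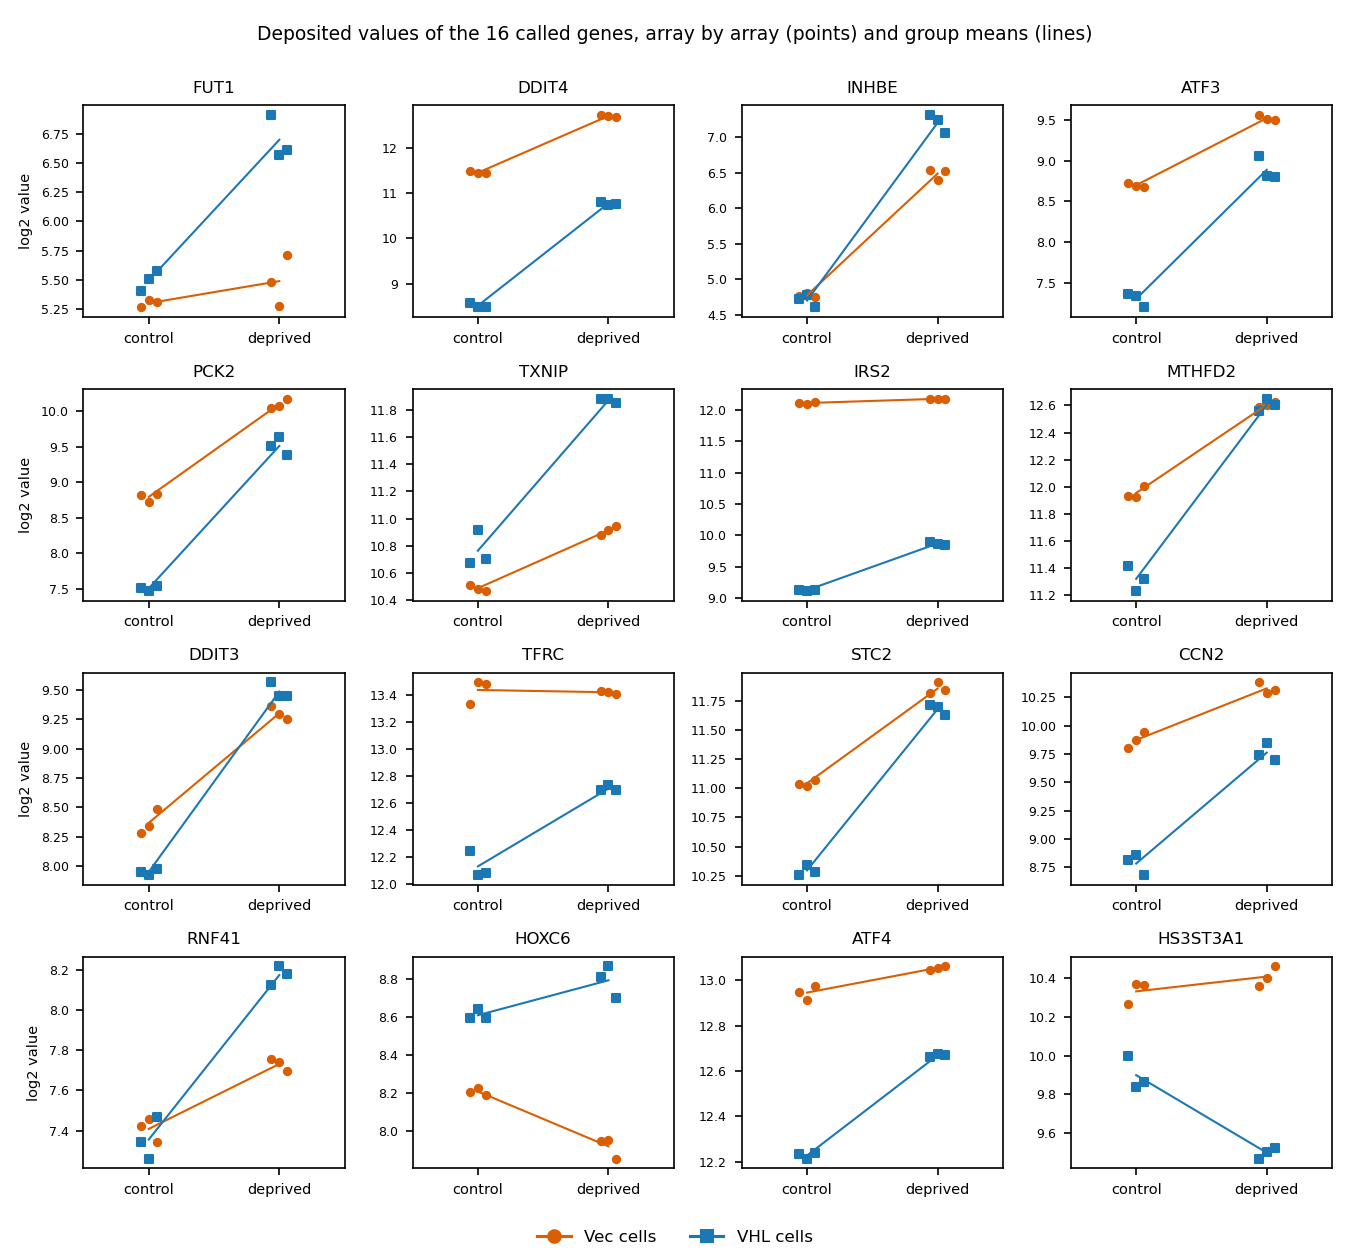
Deposited log2 value (vertical axis, scaled for each gene) of the 16 called genes in control and cystine-deprived medium, with 1 point per array (3 per group) and lines joining group means, Vec cells as orange circles and VHL cells as blue squares. The VHL line rises more steeply than the Vec line in 14 panels, the lines diverge for HOXC6, and for HS3ST3A1 the VHL line falls.

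Promoter windows of the called genes are shown because several of these genes are known targets of ATF4 or HIF. RefSeq windows (GRCh38.p14, 250 bases before to 50 after the start) were in the table for 14 of the 16, with INHBE and HOXC6 missing. The composite element of ATF4 and C/EBP factors, TGATGNAA, was found on either strand in 2 of 14 windows, those of ATF3 and FUT1, against 2.25% of 9563 windows of tested genes and 3.62% of all 35116 windows. The hypoxia response core ACGTG was found in 6 of 14, against 24.8% of tested genes and 21.4% of all windows. The AP-1 site TGANTCA was found in 1 of 14 (DDIT3, 5.43% of tested genes, 7.71% of all), the heat shock element GAANNTTC in 0 of 14 (5.20% and 6.77%) and the NF-kB consensus in 1 of 14 (CCN2, 12.9% and 11.3%). Matches were sought on both strands, and overlaps between motifs were allowed. PCK2, IRS2, TXNIP and STC2 had no match to any of these motifs and are not printed. Which start of a gene these cells used was not tested. The 250 bases before the start, 5' to 3' along the gene, are given for 3 genes with large measured differences and a match, with matches in capitals. They lie at chr19:48755359-48755608 (minus strand, composite element), chr10:72273674-72273923 (plus strand, hypoxia core) and chr1:212565157-212565406 (plus strand, composite element). 
FUT1: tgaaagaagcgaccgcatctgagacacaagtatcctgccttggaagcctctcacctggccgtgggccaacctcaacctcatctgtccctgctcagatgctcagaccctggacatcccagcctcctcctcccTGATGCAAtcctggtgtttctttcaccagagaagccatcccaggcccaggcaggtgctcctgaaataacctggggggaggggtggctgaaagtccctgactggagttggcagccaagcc
DDIT4: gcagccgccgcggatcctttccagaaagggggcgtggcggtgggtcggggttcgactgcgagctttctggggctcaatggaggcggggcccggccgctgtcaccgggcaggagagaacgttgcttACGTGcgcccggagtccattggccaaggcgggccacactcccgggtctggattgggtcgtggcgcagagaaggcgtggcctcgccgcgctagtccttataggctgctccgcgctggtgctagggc
ATF3: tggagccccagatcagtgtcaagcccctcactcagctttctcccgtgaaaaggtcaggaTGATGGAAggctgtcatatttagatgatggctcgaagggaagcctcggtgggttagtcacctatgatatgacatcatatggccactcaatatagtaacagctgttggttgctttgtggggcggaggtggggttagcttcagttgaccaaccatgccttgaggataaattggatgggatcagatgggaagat

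Genes of amino acid shortage rose in both lines, and some of them rose more in VHL cells on the log2 scale. The list of ATF4 targets and amino acid response genes held 38 measured genes, of which 8 were called for the difference, all higher (background 0.125% of genes called higher), and 14 had an unadjusted p under 0.05, all higher (5.58%). The list's median difference was 0.14 against 0.01 over all genes. In Vec cells 28 of the 38 rose and 1 fell (backgrounds 2.11% and 2.06%), and in VHL cells 30 rose and 1 fell (6.16% and 5.48%), with median changes of 0.67 and 0.80. The 8 called members are DDIT4, INHBE, ATF3, PCK2, MTHFD2, DDIT3, STC2 and ATF4.

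The transporter and cysteine genes of the same list were not called. CHAC1, which degrades glutathione, gave 2.68 in Vec and 2.52 in VHL cells, a difference of -0.16 ± 0.14 (95% interval -0.45 to 0.14). SLC7A11, the cystine importer, gave 1.40 and 1.59, a difference of 0.19 ± 0.11 (-0.04 to 0.43). CTH, which makes cysteine from cystathionine, gave 0.24 ± 0.12 (-0.03 to 0.50), and ASNS, which makes asparagine, 0.07 ± 0.07 (-0.08 to 0.22). These intervals exclude a difference as large as that of DDIT4, 1.01, in each of these genes. Those of SLC7A11 and CTH include the called difference of ATF4, 0.33, so a difference of that size is not excluded for them. GCLC, the catalytic subunit of the first enzyme of glutathione synthesis, gave -0.05 ± 0.08 (-0.22 to 0.11).

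CBS, which makes cystathionine and was singled out after its values were seen, as were CTH, ASNS and TRIB3, gave 0.03 in Vec and 0.77 in VHL cells. Its difference of 0.73 ± 0.17 had an adjusted p of 0.195. TRIB3, a pseudokinase that dampens the ATF4 response, gave 0.39 ± 0.10 (adjusted p = 0.232).

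**Figure D3:**
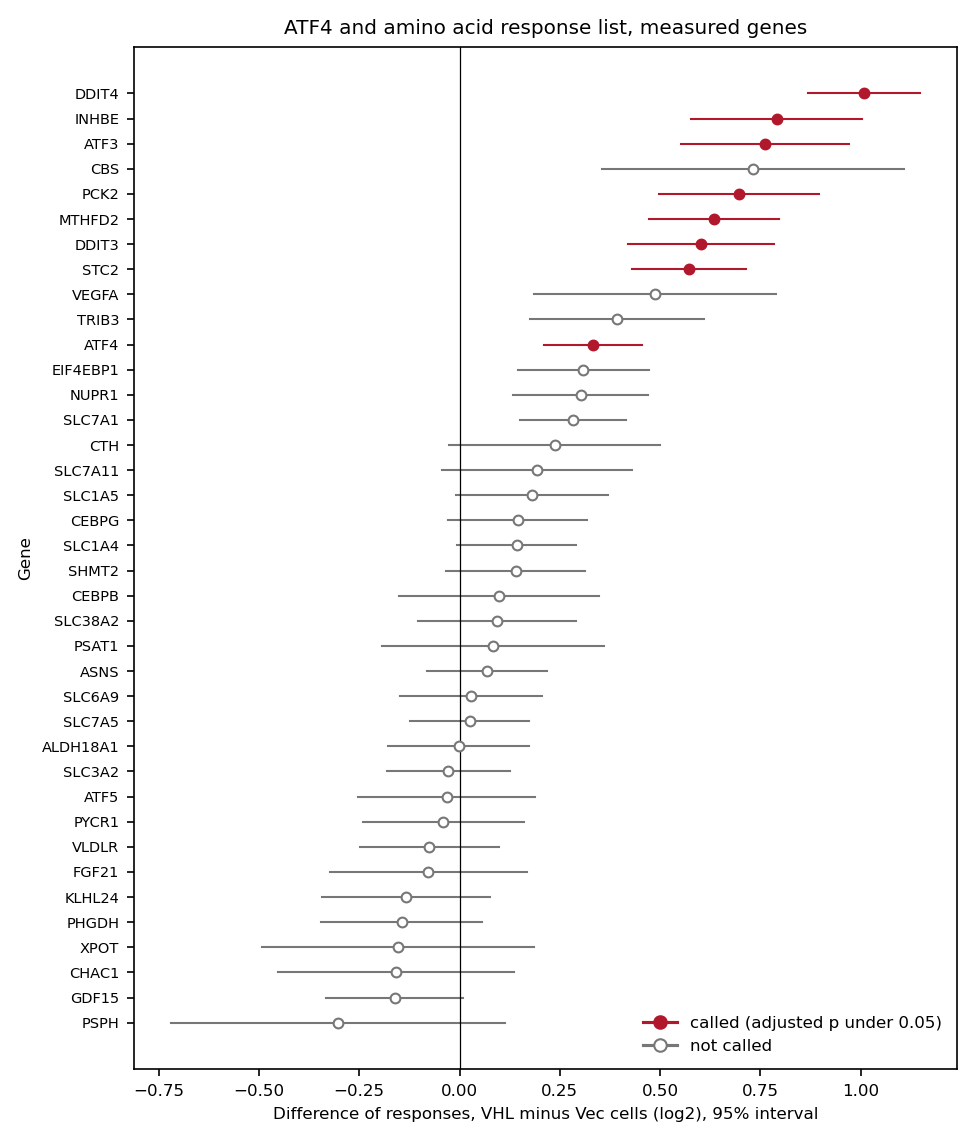
Difference of responses, VHL minus Vec cells (log2, horizontal axis), with its 95% interval from the fit for the 38 measured ATF4 targets and amino acid response genes, ordered by size, with called genes filled in red. The 8 called genes lie between 0.33 and 1.01, while CHAC1 at -0.16 and SLC7A11 at 0.19 have intervals that include 0.

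CXCL8, the chemokine interleukin 8, had the largest difference of all genes and was not called, at 1.61 ± 0.30 (adjusted p = 0.0727). It read 10.42, 10.50 and 10.85 in Vec cells in control medium and 11.27, 11.02 and 11.14 after deprivation, and in VHL cells 7.65, 6.86 and 7.09 and then 9.84, 9.13 and 9.12. In both VHL groups replicate 1 was the highest array. Without VHL control replicate 1 CXCL8 was called (adjusted p = 0.0160). On the linear scale its rise was 713.8 in Vec and 526.8 in VHL cells. The other probe set of CXCL8 gave a log2 difference of 1.25 (limma adjusted p = 0.133 over all probe sets).

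The other NF-kB targets were not called either. Of 28 measured, 0 were called in limma, 7 had an unadjusted p under 0.05, all higher (background 5.58%), and the median difference was 0.09. IL6, an inflammatory cytokine, gave 0.76 ± 0.22 (adjusted p = 0.302) and CXCL1, a neutrophil chemokine, 0.53 ± 0.16 (0.302). TNF, the cytokine that can start necroptosis, was dim and gave 0.09 ± 0.09 (95% interval -0.11 to 0.30). INHBA, an activin subunit singled out after its values were seen, gave 1.10 ± 0.20 (adjusted p = 0.0727), from 0.33 in Vec and 1.43 in VHL cells. It stands in the list of secreted inhibin, TGF-beta and BMP factors, where INHBE was the 1 called gene of 22 (background 0.134%). Unadjusted, 6 of these 22 were higher and 2 lower (5.58% and 4.25%), with a median of 0.09.

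Of 49 measured HIF targets, 3 were called, all higher (background 0.125% of genes called higher), with 11 higher and 3 lower at an unadjusted p under 0.05 (backgrounds 5.58% and 4.25%). Their median difference was 0.01, the same as over all genes. The 3 were DDIT4, STC2 and TFRC, of which DDIT4 and STC2 also stand in the ATF4 list. VEGFA, an angiogenic growth factor, gave 0.27 in Vec and 0.75 in VHL cells, a difference of 0.49 ± 0.14 (adjusted p = 0.298), and its other probe sets gave 0.25, 0.29 and 0.32. EGLN3, a HIF prolyl hydroxylase, gave 0.13 ± 0.08 (-0.05 to 0.31), and COXFA4L2, the current symbol of NDUFA4L2, 0.19 ± 0.17 (-0.18 to 0.55). In VHL cells EGLN3 was dim, with means of 5.47 and 5.54 (control then deprived), against 8.71 and 8.64 in Vec cells. COXFA4L2 read 6.49 and 6.66 in VHL cells, close to the dim level, against 12.18 and 12.17 in Vec cells. Their VHL values were not shown to be above background, so these intervals cannot exclude a difference of responses. SLC2A1, a glucose transporter, gave 0.21 ± 0.08 (adjusted p = 0.435) and CCND1, cyclin D1, -0.05 ± 0.11 (-0.30 to 0.19). ANGPTL4, a lipase inhibitor singled out after its values were seen, went the other way, with 0.59 in Vec and -0.06 in VHL cells and a difference of -0.65 ± 0.17 (0.232).

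Immediate early genes had 2 of 28 called, ATF3 and CCN2, both higher (background 0.125%), with 6 higher and 1 lower at an unadjusted p under 0.05 (5.58% and 4.25%) and a median of 0.11. The iron and ferroptosis list had TFRC as the 1 called gene of 26 (background 0.134%), with 1 higher and 3 lower unadjusted (5.58% and 4.25%) and a median of 0.03. Among feedback genes of MAP kinase and growth factor signalling, 0 of 21 were called (unadjusted, 7 higher and 2 lower, against 5.58% and 4.25%, median 0.12). There DUSP1, a MAP kinase phosphatase, gave 0.31 ± 0.07 (adjusted p = 0.195) and EPHA2, an ephrin receptor, 0.41 ± 0.10 (0.228). The other probe set of DUSP1, with a mean of 6.47, gave 0.01.

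In the other lists no gene was called for the difference by limma, and their unadjusted counts stand against 5.58% higher and 4.25% lower over all genes. Of 16 p53 targets 6 had an unadjusted p under 0.05, all higher (background 5.58%, median 0.08). GADD45A, a growth arrest gene, gave 0.48 ± 0.09 (adjusted p = 0.0998) and DDB2, a DNA repair protein, 0.27 ± 0.07 (0.228). Of 30 interferon response genes 7 were higher and 2 lower unadjusted (median 0.06), with IRF7, a transcription factor of that response, at 0.36 ± 0.09 (0.232) and RIGI, an RNA sensor, at 0.46 ± 0.13 (0.283). Of 26 mitosis genes 4 were higher unadjusted (median 0.04), with CENPA, the centromeric histone, at 0.34 ± 0.08 (0.190) and CENPE, a kinetochore motor, at 0.27 ± 0.07 (0.217).

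Heat shock and DNA replication genes showed no called difference. Of 19 heat shock genes, 10 fell in Vec cells (background 2.06%) and 13 in VHL cells (5.48%), and for the difference 0 were higher and 4 lower unadjusted (median -0.06). DNAJA1, a co-chaperone, gave -0.34 ± 0.08 (adjusted p = 0.186) and DNAJB1, another, -0.21 ± 0.08 (0.421). Of 30 DNA replication genes, 8 fell in Vec (2.06%) and 13 in VHL cells (5.48%), and for the difference 1 was higher and 3 lower (median -0.01), with CCNE2, a cyclin of S phase entry, at -0.56 ± 0.15 (0.246) and RFC5, a clamp loader subunit, at -0.26 ± 0.09 (0.373). The other probe set of CCNE2 gave -0.02, and those of RFC5 gave -0.10 and 0.12.

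The stress, metabolic and death lists likewise gave no calls. Aminoacyl-tRNA synthetases, which load tRNA, had 1 higher and 2 lower of 16 unadjusted (median 0.03), with NARS1 at -0.22 ± 0.07 (adjusted p = 0.346) and LARS1 at -0.21 ± 0.07 (0.383). Among 32 targets of NRF2 and genes of glutathione metabolism 3 were higher and 1 lower (median 0.05), with UGDH, which makes UDP-glucuronate, at -0.47 ± 0.11 (0.190) and TXNRD1, a thioredoxin reductase, at 0.22 ± 0.06 (0.286). Endoplasmic reticulum stress genes had 3 higher and 2 lower of 22 (median -0.03), with PPP1R15A, which restores translation after stress, at 0.41 ± 0.09 (0.160) and HERPUD1, a protein of ER-associated degradation, at 0.27 ± 0.07 (0.225).

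Death receptor and necroptosis genes had 0 higher and 2 lower of 16 (median -0.03), with TNFSF10, the death ligand TRAIL, at -0.32 ± 0.08 (adjusted p = 0.190) and CASP8, an initiator caspase, at -0.29 ± 0.13 (0.495). The other probe sets gave -0.17 and -0.27 for TNFSF10 and 0.15 for CASP8. RIPK1, RIPK3 and MLKL are not analysed here. Sterol synthesis had 1 lower of 16 (median -0.02), with INSIG1, which holds back sterol-sensing factors, at -0.27 ± 0.12 (0.495) and SQLE, squalene epoxidase, at -0.13 ± 0.06 (0.532). Other probe sets of INSIG1 gave -0.18 and 0.04. Glycolysis and lactate genes had 1 higher and 1 lower of 23 (median -0.01), SLC2A1 and SLC2A3, the latter a glucose transporter at -0.28 ± 0.11 (0.421). Other probe sets of SLC2A3 gave -0.16 and 0.10.

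Autophagy and lysosome genes had 1 higher of 22 (median 0.01), with ATG7 at 0.16 ± 0.07 (adjusted p = 0.495) and LAMP2, a lysosomal membrane protein, at -0.27 ± 0.15 (0.569). Other probe sets of LAMP2 gave 0.0013 and 0.01. Oxidative phosphorylation had 0 of 27 at an unadjusted p under 0.05 (median -0.04), with NDUFB3 at -0.13 ± 0.06 (0.529) and NDUFS1 at -0.12 ± 0.07 (0.600). Metallothioneins, which bind metal ions, had 1 lower of 9 (median 0.05), with MT3 at -0.31 ± 0.10 (0.351) and MT1E at 0.16 ± 0.08 (0.529).

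Matrix and cell type lists gave no calls. Extracellular matrix genes had 4 higher and 2 lower of 34 unadjusted (median 0.0023), with COL6A3, a collagen chain, at 0.58 ± 0.17 (adjusted p = 0.298) and FN1, fibronectin, at -0.26 ± 0.08 (0.302). Other probe sets of FN1 gave -0.12, -0.14, -0.17, 0.0017 and 0.21. Epithelial junctions and keratins had 1 higher of 19 (median 0.03), with JUP, plakoglobin, at 0.16 ± 0.07 (0.476) and EPCAM at -0.17 ± 0.08 (0.534). Kidney tubule markers had 1 lower of 16 (median 0.01), with SLC22A6, a dim organic anion transporter, at -0.42 ± 0.10 (0.185) and PAX2, a transcription factor of the nephron, at 0.20 ± 0.10 (0.519). The other probe sets gave -0.06 for SLC22A6 and 0.05 for PAX2. Blood cell markers had 0 of 11 (median 0.02; CD79A 0.19 ± 0.10, NKG7 -0.08 ± 0.08) and endothelial markers 0 of 9 (median -0.0032; TEK -0.26 ± 0.16, TIE1 0.09 ± 0.07).

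The gap between the lines shows where each called gene began. In control medium 11 of the 16 were lower in VHL than in Vec cells, 2 were higher (TXNIP and HOXC6) and 3 were not called (INHBE, RNF41 and FUT1), against 46.1% of all genes called apart (23.0% lower and 23.1% higher). After deprivation 9 were lower, 6 higher and MTHFD2 was not called, against 47.2% of all genes (23.0% lower and 24.2% higher). The arrays of the lines did not overlap for 14 of 16 in control medium (background 53.2%) and for 15 of 16 after deprivation (54.2%). The gap narrowed for 10 genes and widened for 6. Both gaps are part of the difference by which the 16 genes were chosen, so these counts lend it no support. DDIT3 crossed over, from -0.42 ± 0.06 to 0.18 ± 0.06.

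IRS2 kept the widest gap, from -2.98 ± 0.04 in control to -2.31 ± 0.04 in deprived medium, followed by DDIT4, from -2.94 ± 0.05 to -1.93 ± 0.05. ATF3 went from -1.40 ± 0.07 to -0.63 ± 0.07, PCK2 from -1.29 ± 0.06 to -0.59 ± 0.06, and TFRC from -1.30 ± 0.06 to -0.71 ± 0.06. These genes stayed lower in VHL cells while rising more on the log2 scale. FUT1 opened from 0.19 ± 0.10 to 1.21 ± 0.10 and TXNIP from 0.28 ± 0.06 to 0.96 ± 0.06, both higher in VHL cells.

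**Figure D4:**
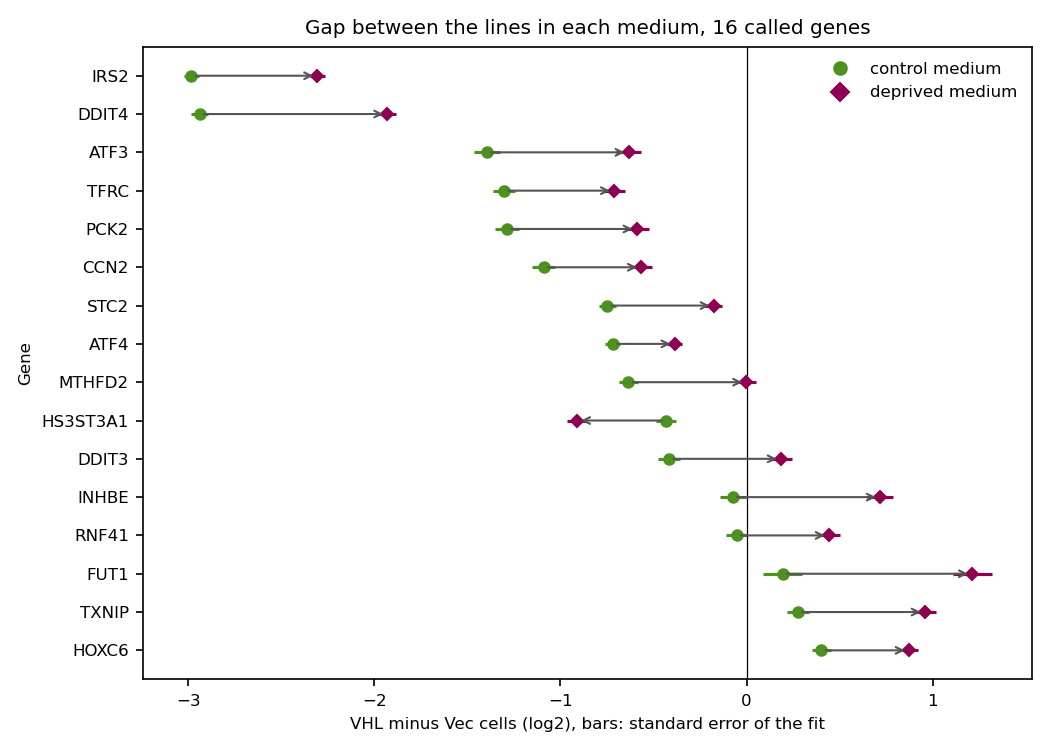
VHL minus Vec cells (log2, horizontal axis) for the 16 called genes in control medium (green circles) and cystine-deprived medium (purple diamonds), with standard errors of the fit as bars and arrows from control to deprived medium. Arrows point to the right for 15 genes and to the left for HS3ST3A1, and 10 gaps narrow, among them DDIT4 from -2.94 to -1.93.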

How the data were processed

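RNA of 12 samples was measured on single-colour Affymetrix arrays. The deposited table holds log2 expression values for 22215 probe sets, a unit read from the values. The authors' background correction, normalization and software are not given in the sources used here. Of the probe sets 19064 named 1 gene, 1043 several and 2108 none. Symbols were updated through RefSeq (GRCh38.p14) for 19052, and 4310 of 11963 genes had more than 1 probe set. Values were used as deposited. In limma 3.58.1 (R 4.3.3), all 12 arrays were fitted with a mean for each of the 4 groups (8 residual degrees of freedom, 12.7 after moderation), with two-sided tests and Benjamini-Hochberg adjustment over all genes. A value after ± is the fit's standard error, or the SD where so named. The fit was also run on simulated data with independent noise for each array, which cannot check its p-values if the replicates are technical.

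The comparison and the 26 gene lists were chosen with earlier results of these data known. Named were the called genes, up to 4 called members of each list (or the 2 of smallest p), VHL and 15 question genes, with CA9, MLKL, RIPK1 and RIPK3 not analysed here. Precision is limited by 3 arrays per group. Alternatives were quantile normalization, median centring, removal of dim genes (means up to 6.46), probe sets averaged by gene, probe sets tested singly, no _x_at or _s_at probe sets, a variance trend with robust moderation, a replicate block and each array left out. The linear scale was added after the data were seen.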

Additional observations from a re-analysis of the deposited data

Results flagged for a closer look

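The responses of Vec and VHL cells to cystine loss differed, by the test of the difference itself, in 16 genes. In log2 units, VHL minus Vec, the difference was 1.02 for FUT1, 1.01 for DDIT4, 0.79 for INHBE, 0.76 for ATF3, 0.70 for PCK2, 0.68 for TXNIP, 0.68 for IRS2, 0.63 for MTHFD2, 0.60 for DDIT3, 0.59 for TFRC, 0.57 for STC2, 0.52 for CCN2, 0.49 for RNF41, 0.47 for HOXC6, 0.33 for ATF4 and -0.48 for HS3ST3A1. FUT1 and INHBE have dim means, so the order of this list does not rank them against the other genes. Groups of 3 arrays were too small to look for single outlying samples.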

How the results depend on the processing

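Of the 16 calls, 10 held in every alternative setting on the log2 scale in which the gene was tested: DDIT4, IRS2, MTHFD2, STC2, INHBE, TXNIP, ATF3, PCK2, DDIT3 and TFRC. No called gene changed sign in those settings. The count of called genes was 45 with a variance trend and robust moderation, 32 higher and 13 lower, and the 16 were among them. Without 1 array it ran from 11 to 16, with 10 to 15 higher and 0 to 2 lower. The count of lower calls was 2 with probe sets tested singly, 3 with probe sets averaged by gene, 2 with quantile normalization and 4 without dim genes, where 24 genes were called. With the replicate block 16 genes were called, 12 of them shared with the unblocked fit; ATF4, CCN2, HS3ST3A1 and RNF41 were lost. CXCL8 was called with the block (1.61, adjusted p = 0.0435) and without dim genes (0.0459). Arrays of different groups sharing a replicate number had residual correlations from -0.268 to 0.235 (median 0.0526). Those with other numbers ran from -0.35 to 0.291 (median -0.0179). The main fit did not take the numbers to pair samples, and these ranges cannot exclude a pairing. Median centring lost ATF4, CCN2 and RNF41. RNF41 was also lost with the mean of its probe sets, at 0.385. ATF4 was lost with probe sets tested singly and without _x_at and _s_at probe sets, a setting that left out the probe sets of DDIT4, IRS2, TXNIP, ATF3, HOXC6 and RNF41, which then were not tested. On the linear scale the sign turned for 3 of the 15 called genes with a positive difference, and 12 stayed positive. The 3 were DDIT4, PCK2 and ATF3, with VHL minus Vec at -2490, -105.4 and -2.29. Among genes not called, FN1 gave 0.0017 and SLC2A1 -0.101 without _x_at and _s_at probe sets, and CCND1, with 1 array left out, ran from -0.113 to 0.0374, positive without replicate 3 of VHL control (0.0062) or replicate 1 of Vec control (0.0374). Signal limits FUT1 and INHBE, whose means over all arrays are dim, and no detection calls were used. Some genes that were not called had dim means in 1 line (control then deprived). Among them were COL6A3 at 6.06 and 6.43, SLC2A3 at 5.94 and 5.92 and EGLN3 at 5.47 and 5.54, all in VHL cells. RIGI was dim in Vec cells, at 6.45 and 6.22. The differences of these genes carry the same limit.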

Other observations

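Of the 16 called genes, 4 lie on chromosome 12 (DDIT3, HOXC6, INHBE and RNF41), which holds 5.64% of the tested genes. This count was made after the calls were seen and was not tested. INHBE and DDIT3 are near neighbours there, and the 1 tested gene between them, GLI1, gave a difference of -0.13 ± 0.13. INHBC, next to INHBE, gave -0.31 ± 0.13, and DCTN2, on the other side of DDIT3, -0.02 ± 0.06, neither called by limma (adjusted p = 0.470 and 0.935).

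The genes just past the threshold included negative differences. ADAMTS1, a secreted metalloprotease, gave -0.47 ± 0.08 (limma adjusted p = 0.0515), from 0.15 in Vec and -0.32 in VHL cells, and FASTKD1, a mitochondrial RNA-binding protein, gave -0.41 ± 0.07 (0.0537). On the positive side SERTAD2, a transcriptional coregulator, gave 0.37 ± 0.06 (0.0539) and HEY1, a target of Notch signalling, 0.48 ± 0.09 (0.0727). These genes were named after their values were seen.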
